A study of Mus musculus with 6 samples.

Results

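miR-192, miR-194 and miR-215 are the mature products of 2 small miRNA clusters of the mouse genome, and 5 entries of the 1976 in the deposited miRNA table, picked by their names, are described here: miR-192-5p, miR-192-3p, miR-194-5p, miR-194-2-3p and miR-215-5p. The table also lists miR-194-1-3p and miR-215-3p, the remaining arms of these hairpins, which are used beside the 5 for comparison. The study profiled miRNAs carried in vesicles, labelled exosomes, released by primary mouse hepatocytes (wild-type C57BL/6J). There were 3 control libraries, with 0 µM palmitic acid, and 3 libraries from hepatocytes exposed to 600 µM of this saturated fatty acid, which is used to load liver cells with fat. The labels name no vehicle, exposure time, age or animal, and do not say that libraries of a group came from separate cultures, so every p-value here is set against differences between libraries that could be technical. Since the table holds vesicle RNA in bulk, fewer vesicles with a miRNA and fewer copies per vesicle cannot be told apart.

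A miRNA hairpin is cut into a short duplex whose 5p or 3p arm is loaded into Argonaute, and bases 2 to 8 of the loaded arm, the seed, pair with target mRNAs. The other arm is usually degraded and is seen at low levels. miR-192, miR-194 and miR-215 are enriched in liver, gut and kidney epithelium, where hepatocyte nuclear factors drive their primary transcripts, and their promoters also respond to p53. Each cluster is transcribed as 1 precursor, so its hairpins leave the genome together although their mature products can be processed, loaded and exported differently.

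The mature sequences are shown with the seed in capitals, since seeds decide which of these miRNAs can share targets. They come from RefSeq on GRCm38.p6, all 5 names matched, and each is written 5′ to 3′.
mmu-miR-192-5p: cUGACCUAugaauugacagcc
mmu-miR-215-5p: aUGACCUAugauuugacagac
mmu-miR-194-5p: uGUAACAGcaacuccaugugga
mmu-miR-192-3p: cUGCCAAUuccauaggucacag
mmu-miR-194-2-3p: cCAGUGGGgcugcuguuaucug

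miR-192-5p and miR-215-5p hold the same seed, UGACCUA, and no other of the 1677 table rows with a RefSeq sequence does. They are identical at 18 of 21 positions. Counted from the 5′ end of miR-192-5p, they differ at C1A, A12U and C20A, with the base of miR-215-5p last. The seed of miR-194-5p, GUAACAG, was held by miR-194-5p alone.

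The hairpins are shown with both arms in capitals, because the arms and the neighbours within each cluster are what the comparisons below use. Mir194-2 (chr19:6264643-6264728, plus strand) and Mir192 (chr19:6264844-6264932, plus strand) lie 115 bases apart, and GENCODE M21 has no other gene over either. Mir194-1 (chr1:185313319-185313385, plus strand) and Mir215 (chr1:185313581-185313692, plus strand) lie 195 bases apart in the non-coding gene 2010103J01Rik, which runs antisense to the protein-coding gene Iars2. Mir215 lies within exon 2 of 2010103J01Rik and Mir194-1 outside its exons.
Mir194-2: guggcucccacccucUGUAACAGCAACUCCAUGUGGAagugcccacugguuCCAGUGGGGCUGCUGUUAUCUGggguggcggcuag
Mir192: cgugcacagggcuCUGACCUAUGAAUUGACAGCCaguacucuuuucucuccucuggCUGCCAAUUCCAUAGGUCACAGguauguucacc
Mir194-1: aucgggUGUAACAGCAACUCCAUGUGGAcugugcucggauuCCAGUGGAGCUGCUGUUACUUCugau
Mir215: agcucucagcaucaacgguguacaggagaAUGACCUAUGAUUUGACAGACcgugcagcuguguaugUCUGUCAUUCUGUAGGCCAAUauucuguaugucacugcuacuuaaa

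The 5p arms of Mir194-1 and Mir194-2 are the same 22 bases, so a read of miR-194-5p does not tell which cluster it came from. Their 3p arms differ at G8A, U19C, C20U and G22C, counted from the 5′ end of miR-194-2-3p, with the base of miR-194-1-3p last.

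The deposited values are log2(adjusted count + 1), with counts adjusted to a common library size, and the reads behind them were recovered by inverting that adjustment. Totals ran from 95239 to 657584 reads in controls and from 613488 to 799132 with palmitic acid. The arms of miR-122, the main hepatocyte miRNA, and of miR-122b together held 69.2% to 87.7% of control reads and 11.7% to 15.3% of palmitic acid reads. Shares of the other miRNAs are therefore also given over reads other than these. Such reads numbered 29342 to 80734 in controls and 534307 to 676811 with palmitic acid. Control libraries had a read of 238 to 243 miRNAs and palmitic acid libraries of 484 to 640. The hepatocyte label was matched by miR-122-5p and miR-148a-3p in every library, whereas miR-802-5p had 0 control reads and 11, 4 and 0 with palmitic acid. miR-101b-3p had only 11, 13 and 7 control reads, against 3538, 3984 and 1206 with palmitic acid. Of reads other than miR-122, the 6 hepatocyte markers, miR-192-5p and miR-122-5p among them (the latter left out of the sum), held 22.8% to 67.5% in controls and 24.2% to 41.0% with palmitic acid. miR-148a-3p made up most of this sum in every library. The summed markers of other cell types were 0.313% to 0.550% in controls and 0.647% to 1.72% with palmitic acid for biliary or other epithelium (8 miRNAs), 0.0989% to 0.525% and 0.0232% to 0.0451% for immune and Kupffer cells (6), and 0.128% to 0.699% and 0.0525% to 0.0708% for stellate cells and fibroblasts (4). Endothelial markers (2) held 0.705% to 1.64% and 0.442% to 0.562%, striated muscle (3, miR-133a-3p at 0) 0.0780% to 0.767% and 0.00298% to 0.00591%, erythroid (3, miR-144-3p at 0) 0.0310% to 1.85% and 0.00281% to 0.0182%, and neuronal (2) 0 to 0.893% and 0 to 0.00148%. Most of the epithelial sum was miR-182-5p in every library (86, 221 and 217 control reads, against 6952, 10950 and 3216 after palmitic acid). Read numbers also rose for miR-183-5p (10, 31 and 20 against 395, 390 and 180) and miR-96-5p (0 against 141, 186 and 56). On the same list, miR-200a-3p, miR-200b-3p, miR-200c-3p, miR-141-3p and miR-429-3p never exceeded 31 reads in a library. The part of these cell-type markers in the results was not tested.

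miR-192-5p was the most abundant of the 5 in all 6 libraries and rose with palmitic acid, by the median change of all tested miRNAs. That call was lost in 10 of its 16 alternatives. Its neighbour miR-194-5p did not pass the test in either direction. The ratio of the pair was 4.51-fold higher with palmitic acid (exact permutation p = 0.1, the smallest possible, and 0.25 adjusted over the 5 pairs compared). miR-192-3p, the other arm of Mir192, had reads only with palmitic acid, but control replicates 1 and 3 were too shallow to tell a different arm ratio. miR-215-5p and miR-194-2-3p were scarce and did not pass.

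**Figure D1:**
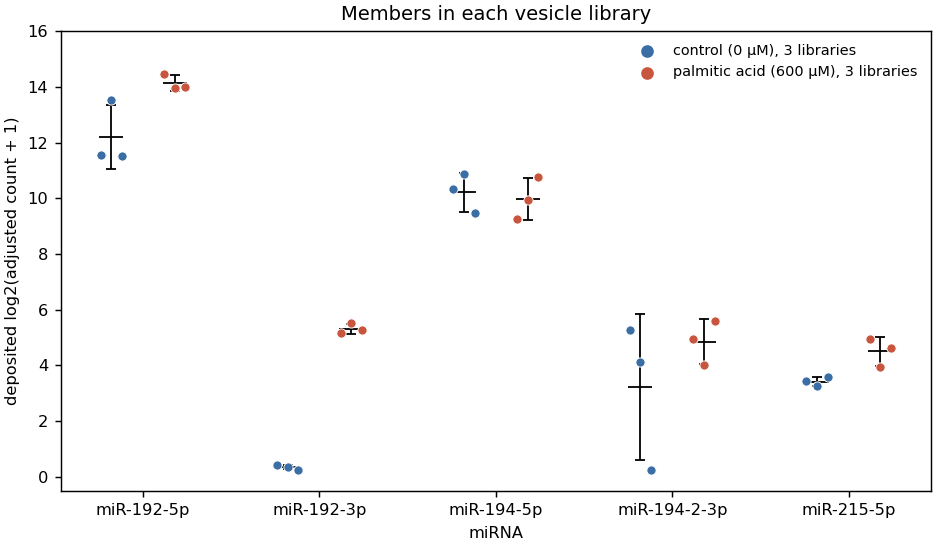
Deposited log2(adjusted count + 1) values of the 5 miRNAs (horizontal axis) in each vesicle library, with 3 control libraries in blue and 3 palmitic acid libraries in red; the black line is the group mean and the bars are 1 SD. miR-192-5p lies above 11.5 in every library and miR-194-5p between 9.27 and 10.87 with overlapping groups, while the control points of miR-192-3p stand for 0 reads.

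miR-192-5p, the leading arm of Mir192, had deposited log2 values of 11.56, 13.53 and 11.53 in the controls (replicates 1, 2 and 3 in order, here and throughout) against 14.46, 13.97 and 14.00 after palmitic acid. Behind these values were 970, 4357 and 1367 control reads and 46232, 45797 and 27607 palmitic acid reads. Every palmitic acid library lay above every control library, and control replicate 2, which also had the highest miR-122 share (87.7%), came closest. The mean rose from 12.20 ± 1.15 to 14.14 ± 0.28 (SD, n = 3 each), a log2 change of 1.94 (SE 0.61, 95% interval 0.53 to 3.35), or 3.83-fold, with a limma Benjamini-Hochberg adjusted p of 0.0259. This change was the median of all 181 tested miRNAs, at rank 91, so relative to the median tested miRNA it was 0 (95% interval -1.41 to 1.41). That interval takes the median as known without error. The call was lost without control replicate 1 (1.61, limma adjusted p = 0.0843) or 3 (1.60, 0.0807) and without palmitic acid replicate 1 (1.78, 0.0937), 2 (2.03, 0.0571) or 3 (2.01, 0.0629), while without control replicate 2 the change was 2.60 (0.000687). Over its 16 alternatives the limma adjusted p ran from 0.00019 to 1.

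miR-194-5p, which comes from both clusters, stood at 10.32, 10.87 and 9.48 in control libraries against 9.27, 9.93 and 10.77 after palmitic acid, from 412, 688 and 331 against 1264, 2785 and 2939 reads. The groups overlapped over nearly their whole range. The log2 change was -0.23 (SE 0.52, 95% interval -1.44 to 0.97, limma adjusted p = 0.72), at rank 128 of 181. Relative to the median tested miRNA it was -2.17 (95% interval -3.37 to -0.97, limma adjusted p = 0.00819). Its sign turned with library totals as the scale (0.74) and without control replicate 2 (0.09) or palmitic acid replicate 1 (0.12), none of which passed.

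miR-215-5p, the seed partner of miR-192-5p, had only 3, 3 and 5 control reads, against 61, 41 and 40 after palmitic acid. Its deposited log2 values were 3.43, 3.25 and 3.59 against 4.95, 3.93 and 4.63. The palmitic acid libraries lay above the controls without overlap, but the log2 change of 1.08 (SE 0.67, 95% interval -0.47 to 2.63) did not pass (limma adjusted p = 0.192), and control counts this low carry large counting error.

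miR-194-2-3p, the scarce arm of Mir194-2, had 12, 6 and 0 control reads, against 61, 44 and 80 after palmitic acid, at deposited log2 values of 5.26, 4.14 and 0.26 against 4.94, 4.02 and 5.60. Apart from control replicate 3, which had no read, the groups overlapped. The log2 change was 1.64 (SE 1.30, 95% interval -1.36 to 4.63, limma adjusted p = 0.293), and 0.16 without control replicate 3.

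miR-192-3p had no recovered read in any control library and 72, 127 and 63 reads with palmitic acid, at deposited log2 values of 5.18, 5.51 and 5.27. The control values of 0.43, 0.37 and 0.26 stand for 0 reads and are set by the adjustment. A miRNA without control reads reaches the test only if all 3 palmitic acid libraries are high, so its direction was fixed by the filter, as for all 17 such miRNAs, and its fitted change is a description that supports nothing. A count of 0 allows shares of up to 0.00315%, 0.000456% and 0.00119% in control replicates 1, 2 and 3, at 3 reads each. With palmitic acid the shares were 0.00901%, 0.0167% and 0.0103%. With 3 reads set in each control library, the palmitic acid mean of miR-192-3p was 4.90-fold the control mean in adjusted counts. In shares of all reads it was 7.50-fold. These are folds of group means, not the lowest fold between single libraries. Over reads other than miR-122, palmitic acid libraries held 0.0106%, 0.0189% and 0.0118%. There the upper Clopper-Pearson limits for 0 reads were 0.0126%, 0.00457% and 0.00701% in control replicates 1, 2 and 3. The limit of control replicate 1 lay above palmitic acid replicates 1 and 3, so no such fold is given on that scale. These limits and the intervals of shares reflect counting error only. They leave out differences between libraries, and whether PCR copies were counted as separate reads is not stated.

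Among the 4 of the 5 that had control reads, 1 rose, 0 fell and 3 passed in neither direction, where 42.0% of all 181 tested miRNAs were called higher and 14.4% lower. Of the 164 tested miRNAs that likewise had a control read, 36.0% were called higher and 15.9% lower. Fully separated, higher palmitic acid values were found for 2 of these 4, against 48.6% of all tested miRNAs and 43.3% of those with a control read. The median change of all tested miRNAs was 1.94 as deposited and lay between 1.15 and 2.99 under the other scalings. Relative to the median, 0 of the 4 were called higher and 1, miR-194-5p, lower, where 26.5% of all tested miRNAs were higher and 32.6% lower, and 18.9% and 36.0% of those with a control read. These calls take the median as known without error.

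**Figure D2:**
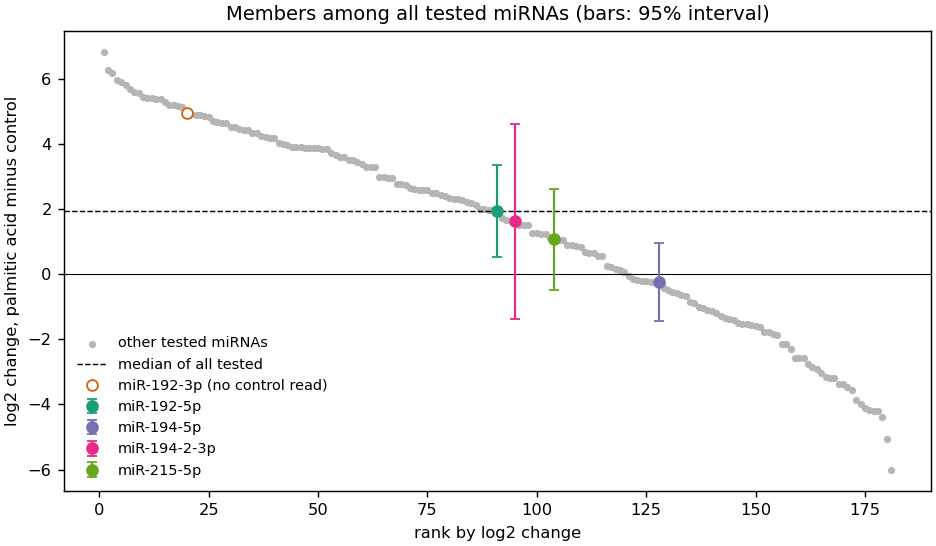
Log2 change (palmitic acid minus control, vertical axis) of all 181 tested miRNAs ordered by rank (horizontal axis), with the 5 miRNAs in colour and 95% limma intervals as bars for the 4 that had control reads; the dashed line is the median of all tested miRNAs. miR-192-5p lies on the median at 1.94, miR-194-5p at -0.23 lies below it, and miR-192-3p, drawn open because it had no control read, lies at rank 20.

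In shares of reads, miR-192-5p held 1.02% (95% Clopper-Pearson interval 0.956 to 1.08), 0.663% (0.643 to 0.682) and 0.542% (0.513 to 0.571) of control libraries 1, 2 and 3. With palmitic acid it held 5.79% (5.73 to 5.84), 6.01% (5.96 to 6.07) and 4.50% (4.45 to 4.55). The means of 0.741% ± 0.248 and 5.43% ± 0.815 (SD, n = 3 each) differed 7.33-fold with separated groups and an exact two-sided permutation p of 0.1, the smallest that 3 libraries against 3 allow (0.133 adjusted over the 8 shares compared). Over reads other than miR-122, control libraries held 3.31%, 5.397% and 2.60% and palmitic acid libraries 6.83%, 6.81% and 5.17%. There the groups overlapped and the ratio of the means was 1.66 (exact permutation p = 0.2).

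miR-194-5p held 0.433%, 0.105% and 0.131% of all control reads and 0.158%, 0.366% and 0.479% of palmitic acid reads, with overlapping groups (exact permutation p = 0.5). Over reads other than miR-122 the order turned. Control libraries then held 1.404%, 0.852% and 0.629% and palmitic acid libraries 0.187%, 0.414% and 0.550%, and every palmitic acid library lay below every control library (ratio of the means 0.399, exact permutation p = 0.1, the smallest possible). miR-215-5p, at 0.00782% ± 0.00357 and 0.00753% ± 0.00146 of reads other than miR-122 (SD, n = 3 each), overlapped between the groups (exact permutation p = 0.9).

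**Figure D3:**
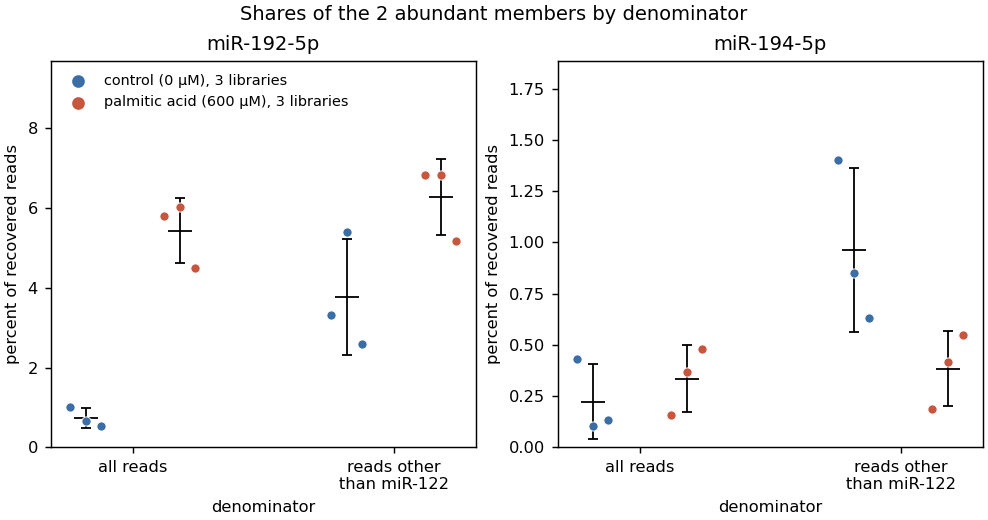
Percent of recovered reads (vertical axes, starting at 0) held by miR-192-5p (left) and miR-194-5p (right) in each library, over all reads and over reads other than miR-122; blue points are the 3 control libraries, red the 3 palmitic acid libraries, lines the mean and bars 1 SD. The groups of miR-192-5p are separated over all reads and overlap over reads other than miR-122, while those of miR-194-5p overlap over all reads and are separated, lower with palmitic acid, over the other reads.

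The order of abundance was set by the same pair in every library. In RPM, the usual depth-scaled read number of small RNA libraries, miR-192-5p averaged 7409 ± 2478 in control libraries against 54323 ± 8153 after palmitic acid, and miR-194-5p 2228 ± 1822 against 3343 ± 1627 (SD, n = 3 each). miR-192-5p ranked 8, 5 and 11 among all miRNAs of the control libraries against 7, 7 and 6 after palmitic acid, so its rank stayed in a narrow band. miR-194-5p ranked 15, 13 and 23 in control libraries against 33, 27 and 19 after palmitic acid. With palmitic acid the other members stood at 120 ± 41.1 (miR-192-3p), 88.2 ± 37.7 (miR-194-2-3p) and 65.1 ± 11.3 (miR-215-5p) RPM (SD, n = 3 each), and the libraries of each overlapped those of the next in that order. In controls they were at 0, 45.0 ± 70.3 and 18.6 ± 13.5. Mature miRNAs are of nearly 1 length, so these levels were not scaled by length, and unequal ligation of different sequences was not measured.

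The ratio of neighbours within a library does not depend on how libraries are scaled. For the chromosome 19 neighbours, the control libraries held 2.35, 6.33 and 4.13 reads of miR-192-5p per read of miR-194-5p, against 36.6, 16.4 and 9.39 after palmitic acid. Every palmitic acid library exceeded every control. In adjusted counts with 0.5 added, the mean log2 ratio was 1.98 ± 0.72 for controls against 4.15 ± 0.99 after palmitic acid (SD, n = 3 each), a difference of 2.17, or 4.51-fold (exact permutation p = 0.1, the smallest possible, and 0.25 adjusted over the 5 pairs compared). It stayed between 1.65 and 2.63 when each library was left out in turn. miR-194-5p can also come from Mir194-1, so this is not a ratio of the chromosome 19 products alone.

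The 3p arms, which differ between the Mir194 hairpins, give a view of that mixture. Over all 6 libraries miR-194-2-3p had 203 reads and miR-194-1-3p, the matching arm on chromosome 1, had 3, found in palmitic acid replicates 2 (2 reads) and 3 (1 read). The chromosome 19 hairpin thus held 98.5% (95% Clopper-Pearson interval 95.8 to 99.7) of the 3p reads of the pair. miR-215-3p had 0 reads in all 6 libraries, where a count of 0 allows up to 3 in each. These counts describe 3p arms, and how far the 5p reads follow them was not measured.

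For the chromosome 1 neighbours, miR-194-5p outnumbered miR-215-5p by 137, 229 and 66.2 reads to 1 in controls and by 20.7, 67.9 and 73.5 to 1 with palmitic acid. The groups overlapped (log2 difference -1.35, exact permutation p = 0.3, 0.375 adjusted over the 5 pairs). miR-192-5p outnumbered its seed partner miR-215-5p by 323, 1452 and 273 to 1 in control libraries, against 758, 1117 and 690 to 1 after palmitic acid. These groups also overlapped (log2 difference 0.82, exact permutation p = 0.4, also 0.4 adjusted), and miR-192-5p supplied nearly all reads with the UGACCUA seed in each library.

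**Figure D4:**
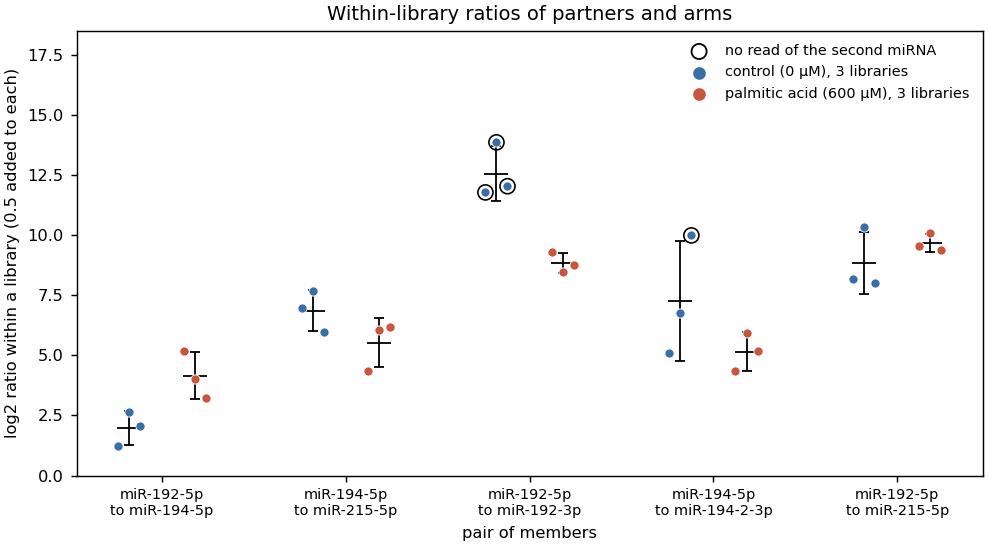
Log2 ratio of 2 miRNAs within each library (vertical axis, adjusted counts with 0.5 added to each) for the 5 pairs compared (horizontal axis); blue points are 3 control and red points 3 palmitic acid libraries, lines the mean, bars 1 SD, and circles mark libraries with no read of the second miRNA. The ratio of miR-192-5p to miR-194-5p is higher in all palmitic acid libraries, and the circled control ratios of miR-192-5p to miR-192-3p depend on the value added to 0 reads.

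The 3p arm of Mir192 was read only after palmitic acid, where the libraries held 642, 361 and 438 reads of miR-192-5p per read of miR-192-3p. In the controls, 970, 4357 and 1367 reads of the 5p arm came with 0 of the 3p arm, so that against 3 reads in each library the ratios were at least 323, 1452 and 456 to 1. Control replicate 2 alone had a limit above all palmitic acid ratios. At the palmitic acid ratios, control replicates 1, 2 and 3 would have carried 1.51 to 2.69, 6.79 to 12.1 and 2.13 to 3.79 reads of the 3p arm. In control replicates 1 and 3 a different arm ratio was therefore not detectable at this depth. Over the 24 hairpins with both arms at a mean adjusted count of at least 10, the fitted log2 arm ratio of Mir192 differed by -3.73 (SE 1.39), which did not pass (limma adjusted p = 0.0695, where 12.5% of hairpins were called). With 0 control reads of the 3p arm, this value is set by the number added, and was -1.12 with 5 in place of 0.5.

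The arms of Mir194-2 overlapped between groups. miR-194-5p outnumbered miR-194-2-3p by 34.3 and 115 to 1 in control replicates 1 and 2, with no 3p read beside 331 reads of the 5p arm in replicate 3. With palmitic acid the ratios were 20.7, 63.3 and 36.7 to 1. The fitted log2 difference was -2.12 (SE 1.43, limma adjusted p = 0.244), and without control replicate 3 it was -0.77. In controls the scarce arms of the adjoining hairpins thus stood at 18 reads for miR-194-2-3p and 0 for miR-192-3p, and with palmitic acid at 185 and 262.

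The miRNAs whose profile over the 6 libraries was most like each member were ranked by the root-mean-square difference of log2 values, each miRNA centred on its own mean. The nearest to miR-192-5p were miR-183-5p (0.39), an epithelial miRNA, miR-99b-3p (0.46) and miR-148b-3p (0.52), against a median of 1.61 over all tested miRNAs. Its cluster neighbour miR-194-5p ranked 55 at 1.29, and miR-215-5p ranked 23 at 0.89, so neither neighbour nor seed partner was among the nearest. The nearest to miR-194-5p were miR-22-3p (0.31), miR-361-3p (0.50) and let-7a-5p (0.50), with a median of 1.89. miR-215-5p lay nearest to miR-27b-3p (0.29), miR-27a-3p (0.42) and miR-222-3p (0.45), and miR-194-2-3p to miR-484 (0.63), miR-23a-3p (0.78) and miR-455-3p (0.80). miR-192-3p lay nearest to miR-3066-5p (0.16), miR-350-3p (0.19) and miR-34a-5p (0.32), which like it had no control read, so that their control values are set alike by the adjustment.

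Of 8 other hepatocyte miRNAs listed, 7 were tested, 3 rose, 1 fell and 3 did not pass, near the 42.0% higher and 14.4% lower of all tested miRNAs; their median log2 change was 0.83 against 1.94 for all tested miRNAs. The direction of 1 of the 3, miR-365-3p, was fixed by the filter, since it had no control read. miR-101a-3p rose by 4.65 (SE 0.53) and miR-122-5p fell by 3.56 (SE 0.98), while miR-148a-3p stood at 0.83 and miR-22-3p at -0.66 (limma adjusted p = 1.6e-04, 0.0141, 0.453 and 0.259). Leading hepatocyte miRNAs thus lay on both sides of miR-192-5p. Other miRNAs linked to p53 numbered 10, of which 5 were tested, 3 rose, 0 fell and 2 did not pass, beside 42.0% higher and 14.4% lower among all tested miRNAs; their median was 2.76. miR-16-5p rose by 2.76 (SE 0.96, limma adjusted p = 0.0386) and miR-107-3p by 4.34 (SE 1.18, 0.0136), while miR-143-3p stood at -0.89 (0.192) and miR-149-5p at 1.997 (0.227). The direction of miR-34a-5p, the best known p53-induced miRNA, was fixed by the filter, as it had 0 control reads and 118, 184 and 56 with palmitic acid.

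**Figure D5:**
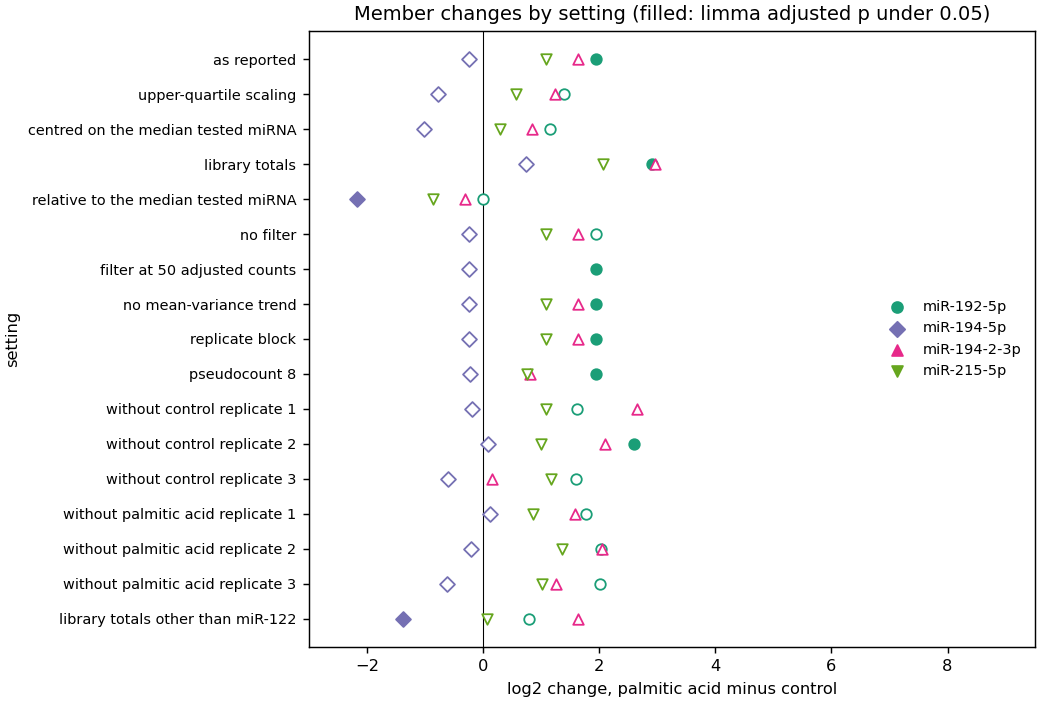
Log2 change (palmitic acid minus control, horizontal axis) of the 4 miRNAs with control reads under each setting (vertical axis), filled where the limma adjusted p is below 0.05; points are missing where a miRNA did not pass the filter of that setting. miR-192-5p runs from 0 relative to the median tested miRNA to 2.91 with library totals, and miR-194-5p from -2.17 to 0.74 under the same settings.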

How the data were processed

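Per the labels' protocols, RNA was extracted with Trizol and libraries used a NEBNext small RNA kit. Bowtie2, bedtools, GRCm38 and mm10 are named in the submitters' processing notes without roles, and the way reads were counted is not given in the sources used here. Values of the deposited table are log2, read from their steps as log2(adjusted count + 1). They match a negative binomial quantile adjustment with 1 dispersion (1.39) and 1 mean per miRNA, a step no label states; libraries not analysed here may have entered it. Inverting it gave whole reads for 100% of 4387 tested values (within 0.0015, with neighbouring read numbers at least 0.02 apart), and recovered 99.9% of simulated read numbers of 1058 rows within 0.5%. The mean of each miRNA was chosen to bring its values closest to whole reads. The simulation used the same fitted adjustment, so it cannot test whether that adjustment was the one applied. High read numbers are not resolved singly: those of miR-192-5p may be off by up to 0.011%, of miR-194-5p by 0.14%, and of miR-192-3p (2 libraries) and miR-194-2-3p (1 library) by 2.33% and 1.14%. The fitted library factors were 0.322 to 0.463 in controls and 1.69 to 2.86 with palmitic acid.

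A group term was fitted with limma 3.58.1 in R 4.3.3, with a variance trend, to the 181 miRNAs that reached an adjusted count of 10 in 3 or more libraries, two-sided, with Benjamini-Hochberg adjustment at 0.05. Because 1 is added before the log2, fold changes of scarce miRNAs come out too small. In data simulated for this comparison (181 miRNAs, 90 changed), 10% of log2 changes of 1, 40% of 2 and 100% of 4 were recovered. Ratios and shares were compared by exact two-sided permutation tests. For values relative to the median, the median change was subtracted from the palmitic acid libraries as a fixed number. Their intervals, p-values and calls therefore leave out the error of that median. Replicates of a group did not agree within sampling noise (chi-square per degree of freedom 79.0 to 478). The text names the 5 members, the other arms of their hairpins, the 3 nearest profiles of each and some miRNAs of the lists. Members and lists were chosen with earlier results of these data known. Alternatives were other scalings, filters, pseudocounts, a replicate block and leaving out each library.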

Additional observations from a re-analysis of the deposited data

How the results depend on the processing

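The log2 change of miR-192-5p was 1.39 with upper-quartile scaling, 1.15 with libraries centred on the median tested miRNA, 0 relative to that median, 1.94 with no filter (limma adjusted p = 0.108) and 0.79 with library totals other than miR-122, a scale chosen after seeing the data; none of these passed. Leaving out 1 library gave 1.60 to 2.60. miR-194-5p passed as lower relative to the median (-2.17) and with library totals other than miR-122 (-1.38). It did not pass with libraries centred on the median tested miRNA (-1.02), turned to 0.74 with library totals, and ran from -0.62 to 0.12 with 1 library left out. Relative to the median, miR-194-2-3p turned to -0.30 and miR-215-5p to -0.86. Over reads other than miR-122, the difference in share turned for miR-194-5p (-0.578 percentage points), miR-194-2-3p (-0.00593) and miR-215-5p (-0.000283). The arm ratio of Mir192 across hairpins ran from -4.12 to -3.07 with 1 control library left out. It then passed without control replicate 1, 2 or 3 (limma adjusted p = 0.00914, 0.0262 and 0.0488). Without palmitic acid replicate 1, 2 or 3 it did not pass (limma adjusted p = 0.278, 0.312 and 0.288). Nor did it pass with the replicate block, recovered reads or 5 added (limma adjusted p = 0.156, 0.127 and 0.463). These values are set by the number added to 0 control reads. miR-192-3p, whose direction the filter fixed, was not tested with the filter at 50 adjusted counts or without a palmitic acid replicate, and miR-194-2-3p and miR-215-5p did not pass the filter at 50. The 5 pair ratios kept their sign in all 10 alternatives each.

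Against 76 miRNAs called higher and 26 lower, 48 and 59 were called relative to the median, 50 were higher with the filter at 50, and 40, 8, 60 and 41 were lower with centring, library totals, no filter and library totals other than miR-122. With 1 library left out the counts were 28 to 86 and 18 to 29, with 28, 32 and 33 higher calls without palmitic acid replicate 1, 2 and 3. Same-numbered libraries deviated from their group means with correlations of 0.209, 0.151 and 0.0383, and 5 of 6 libraries correlated best with their own number. With 3 libraries in each group, these values cannot decide whether the numbers pair the libraries. With the replicate block, 83 were higher and 28 lower, miR-192-5p kept its call (1.94, limma adjusted p = 0.0255), and no call of a member with control reads changed; pair ratios could not pass in either design. Depth limits miR-192-3p, miR-194-2-3p and miR-215-5p, which rest on 0 to 12 reads in each control library.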
